A study of Homo sapiens with 30 samples.

Results

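The early response to pharmacological activation was compared between Jurkat E6-1 cells that lack isoform 1 of SLAMF6 (KO) and unedited cells (WT). Jurkat is an established T lymphocyte line from a human leukaemia. The quantity examined is the difference between genotypes in the change at 6 h: the log2 change of a transcript from 0 to 6 h in KO minus the same log2 change in WT. It rests on 12 of the 30 libraries of the series, 3 in each of 4 groups. The KO 6 h group carries the SLAMF6 deletion, written in the treatment protocol as a loss of residues 17 to 65, and was activated with the phorbol ester PMA at 200 ng/ml and the calcium ionophore ionomycin at 300 ng/ml. The KO 0 h group carries the same deletion and was unstimulated. The WT 6 h group received PMA and ionomycin without the deletion, and the WT 0 h group received neither. The remaining 18 libraries hold the same genotypes at 12, 24 and 36 h. The series is titled for isoform 3 overexpression, but the design text describes loss of isoform 1, which is taken here. Time points carry no unit in the labels and were read as hours, and the doses come from a treatment protocol written for a cytokine assay. The labels do not state how many edited clones the KO cells represent or whether the libraries of a group came from separate cultures. The p-values below therefore measure the spread between libraries, which may be technical, and a difference between genotypes cannot be told apart from a difference between cell clones. The titles also carry a letter, A for WT and B for KO from 0 to 24 h and C for both at 36 h. Its meaning is not given in the titles, and up to 24 h it cannot be told apart from genotype.

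PMA activates protein kinase C and the Ras activator RasGRP1, and through them the ERK kinase cascade and NF-kB, while ionomycin raises calcium and switches on calcineurin and NFAT. Together they bypass the T cell receptor and induce immediate early transcription factors within minutes, followed by cytokines, surface receptors and negative feedback regulators. SLAMF6 is a lymphocyte surface receptor of the SLAM group that binds itself on neighbouring cells and signals through the adaptor SAP, encoded by SH2D1A. The gene lies on chromosome 1 (GRCh38, 160485030 to 160523262, minus strand), in a cluster with SLAMF1, SLAMF7 and LY9. Transcripts of SLAMF6 stood at 38.8, 40.2 and 47.9 CPM (the count relative to the library's total, TMM-scaled) in the KO 6 h libraries and at 18.2, 21.0 and 18.6 CPM in the KO 0 h libraries. In WT they stood at 40.4, 39.9 and 36.1 CPM at 6 h and at 19.0, 25.1 and 19.4 CPM at 0 h. The libraries of both genotypes overlapped at each time, and the difference in response was 0.25 ± 0.20 (log2 ± SE, adjusted p = 0.61). Gene counts add all isoforms, so these values do not check the deletion.

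The 12 libraries held 5635023 to 28234046 counts, and library 2 of each 0 h group (numbers are those of the titles) was the shallowest of its group. All 13 T lineage markers found in the files, CD3D, LCK and ZAP70 among them, exceeded 1 CPM in every group. Their summed level ran from 6730 to 8580 CPM at KO 6 h and from 4970 to 5150 CPM at KO 0 h, and from 6980 to 7500 CPM at WT 6 h and from 5680 to 5800 CPM at WT 0 h. The 12 monocyte and macrophage markers summed to 26.5 to 38.7 CPM at KO 6 h, 4.76 to 12.1 CPM at KO 0 h, 15.4 to 16.9 CPM at WT 6 h and 7.91 to 8.51 CPM at WT 0 h. Of these 12 markers CSF1R, ITGAM and CD68 exceeded 1 CPM at KO 6 h. The 10 B cell markers moved the other way, with sums of 36 to 38.7 CPM at KO 6 h, 62.2 to 75 CPM at KO 0 h, 40.2 to 41.3 CPM at WT 6 h and 53.7 to 58.9 CPM at WT 0 h. The summed level of erythroid markers stayed under 11 CPM and that of markers of adherent lines under 10 CPM in every library. The part of such transcripts in the results was not tested. Library 5 of KO 6 h stood apart from its group. Its chi-square per degree of freedom over genes was 33.0 against library 4 and 38.1 against library 6, whereas libraries 4 and 6 differed by 8.2 and pairs of WT libraries by 4.59 to 11. The departure went both ways. IL2, CD69 and SLAMF1 were lower in it, at 26.9, 399 and 13.2 CPM, against 108, 769 and 58.2 CPM in library 4 and 104, 819 and 48.9 CPM in library 6. LAT, KLF10 and EGR1 were higher in library 5, at 2280, 224 and 262 CPM. They stood at 1320, 125 and 179 CPM in library 4 and at 1340, 144 and 149 CPM in library 6. Calls lost without library 5 are given with that value for the genes described.

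The genotypes differed in their early response at 649 of 21554 genes tested (3.01% of all genes tested; edgeR quasi-likelihood test, adjusted p under 0.05). The log2 change was larger (more positive) in KO at 353 genes (1.64%) and smaller (more negative) at 296 genes (1.37%), of which 189 and 122 genes differed at least 2-fold. Activation itself called 5858 genes in KO (27.2%; 14% rose and 13.2% fell) and 4818 in WT (22.4%; 11.8% rose and 10.5% fell). Genes with a larger change had a median log2 change of 1.54 in KO and 0.25 in WT, and genes with a smaller change had medians of -0.71 in KO and 0.16 in WT. Called genes were more frequent at higher levels, with 0.23% of genes under 1 CPM, 4.92% at 10 to 100 CPM and 7.57% at 100 CPM or more. The shares of gene lists below are set beside all genes and are not matched for level. The count was 718 without library 5 of KO 6 h. It was lowest, at 403, without library 1 of KO 0 h, and it was 415 without library 6 of WT 6 h and 425 without library 1 of WT 0 h.

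**Figure D1:**
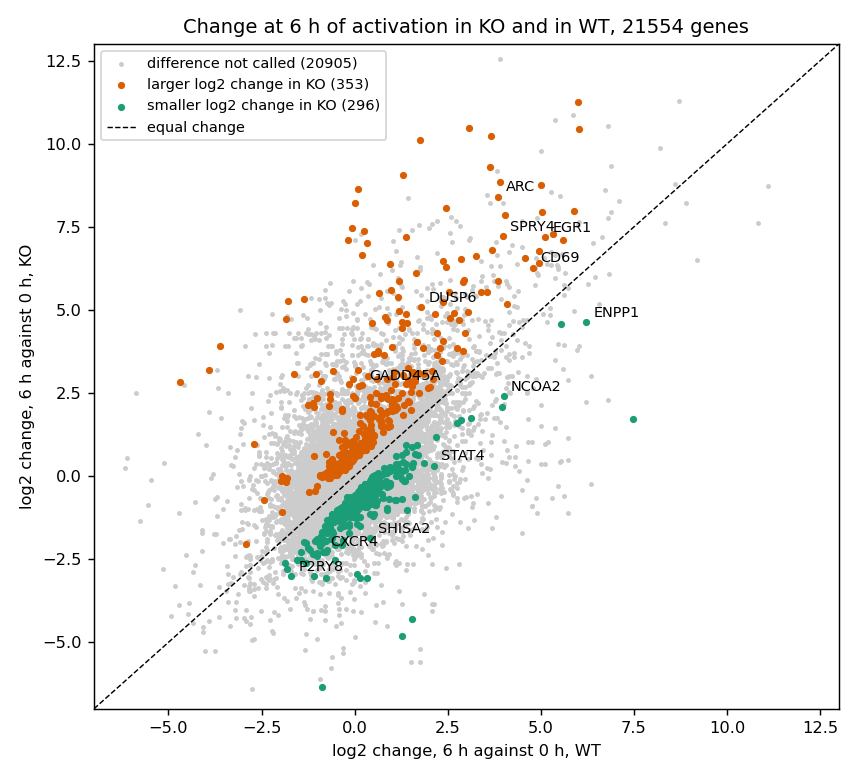
Each point is 1 of 21554 genes, with the log2 change from 0 to 6 h in WT on the x axis and in KO on the y axis. The 353 genes with a larger change in KO lie above the dashed line of equal change and the 296 genes with a smaller change lie below it, and ENPP1 and NCOA2 lie among genes that rose in both genotypes.

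Among the 353 genes with a larger change, 159 rose in KO and were not called in WT, 133 rose in both genotypes, 46 were not called in KO and fell in WT, and 9 rose in KO while falling in WT. Among the 296 genes with a smaller change, 130 fell in KO and were not called in WT, 63 were not called in KO and rose in WT, 60 fell in both, 20 rose in both and 20 fell in KO while rising in WT. A difference in response can stem from the starting level, the level reached, or both. KO and WT were called different at 1309 genes at 0 h (6.07%, with KO higher at 2.96% and lower at 3.11%) and at 2148 genes at 6 h (9.97%, with KO higher at 5.21% and lower at 4.76%). Of the 353 genes, 194 were called between genotypes at 6 h alone, with KO higher, and 94 were called at 0 h alone, with KO lower. Of the 296 genes, 155 were called at 6 h alone, with KO lower, and 84 at 0 h alone, with KO higher. Another 23 genes were lower in KO at 0 h and higher at 6 h, and 18 were higher at 0 h and lower at 6 h. These counts describe the same libraries that made the calls.

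**Figure D2:**
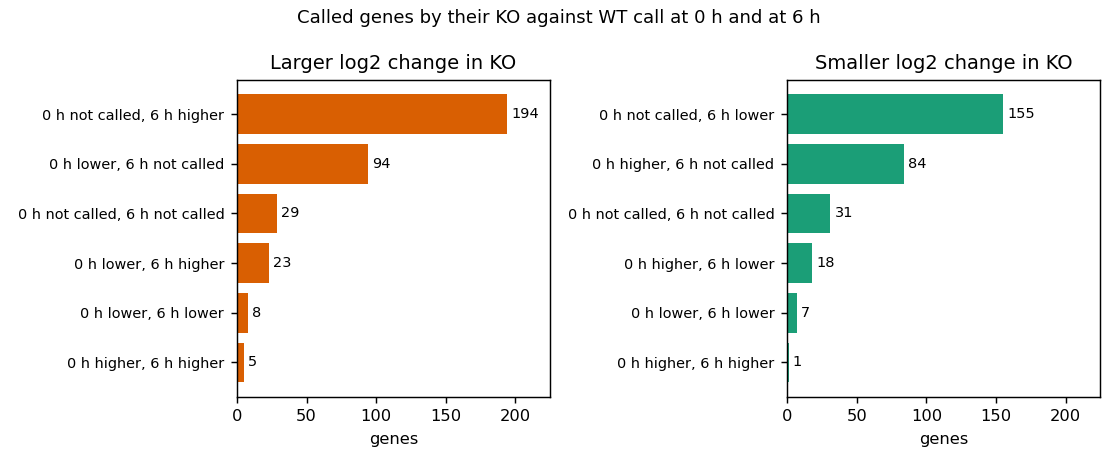
Bars count the called genes by whether KO was called higher than, lower than or not different from WT at 0 h and at 6 h, with genes of larger change on the left and of smaller change on the right. The longest bars are the 194 genes higher in KO at 6 h alone and the 155 genes lower in KO at 6 h alone.

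The promoters of 4 called genes are shown because they hold letters that bind factors acting in this stimulus: the CArG box bound by serum response factor (EGR1 and ACTG2), the AP-1 site bound by FOS and JUN proteins (CPA4), and the kB site bound by NF-kB (IRF1). Each is the 250 bases before the start of the gene from RefSeq on GRCh38.p14, 5′ to 3′ on the gene's strand, with the motif in capitals. They lie at chr5:138465229-138465478 (plus strand) for EGR1, chr2:73892758-73893007 (plus strand) for ACTG2, chr7:130292911-130293160 (plus strand) for CPA4 and chr5:132490774-132491023 (minus strand) for IRF1.
EGR1: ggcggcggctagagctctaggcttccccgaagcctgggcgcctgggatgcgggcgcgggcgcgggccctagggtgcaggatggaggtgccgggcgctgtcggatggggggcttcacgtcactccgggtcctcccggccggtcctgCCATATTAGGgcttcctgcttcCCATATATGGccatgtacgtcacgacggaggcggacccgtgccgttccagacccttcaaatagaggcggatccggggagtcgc
ACTG2: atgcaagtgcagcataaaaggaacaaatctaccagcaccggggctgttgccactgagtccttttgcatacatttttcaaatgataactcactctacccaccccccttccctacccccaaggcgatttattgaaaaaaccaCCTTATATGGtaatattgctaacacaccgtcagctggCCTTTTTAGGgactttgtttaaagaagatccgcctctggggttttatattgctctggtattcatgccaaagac
CPA4: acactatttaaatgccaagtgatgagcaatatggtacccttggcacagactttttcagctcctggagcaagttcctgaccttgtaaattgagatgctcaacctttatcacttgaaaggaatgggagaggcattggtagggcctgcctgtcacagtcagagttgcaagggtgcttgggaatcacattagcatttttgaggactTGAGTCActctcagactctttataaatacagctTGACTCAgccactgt
IRF1: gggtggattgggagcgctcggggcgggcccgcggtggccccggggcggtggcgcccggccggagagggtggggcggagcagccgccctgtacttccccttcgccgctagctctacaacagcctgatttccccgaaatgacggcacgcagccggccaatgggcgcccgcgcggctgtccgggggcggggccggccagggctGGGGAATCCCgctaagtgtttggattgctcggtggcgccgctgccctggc
Searched on both strands, the CArG box was present in 5 of 242 matched promoters of genes with a larger change (2.07%), 5 of 216 with a smaller change (2.31%), 1.03% of the 11600 matched promoters of tested genes and 1.14% of all 27305 promoters of the same length. The AP-1 letters TGANTCA were present in 6.61%, 5.09%, 4.47% and 6.6% of these sets, and the kB site in 5.37%, 7.87%, 6.09% and 5.05%. The NFAT core GGAAAA was present in 12.4%, 18.1%, 18.4% and 21.4%. Letters of several other sites were also searched and are not given here. A match is a description of the letters and not of binding.

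Immediate early and AP-1 factors, the first transcription factors made after stimulation, had 7 of 25 members with a larger change in KO and 1 with a smaller change. The called members were 32% of the list, against 3.01% of all genes. The median log2 difference of the list was 0.83, against 0.00 over all genes. EGR1, a zinc finger factor induced through ERK and serum response factor, stood at 179, 262 and 149 CPM in KO at 6 h and at 1.40, 1.06 and 1.35 CPM in KO at 0 h. In WT it stood at 312, 332 and 297 CPM at 6 h and at 8.86, 10.7 and 8.14 CPM at 0 h. KO libraries lay below WT libraries at both times, with no overlap, and KO showed the larger change. Mean EGR1 was 154-fold higher at 6 h in KO and 33.9-fold higher in WT (difference 2.07 ± 0.29, adjusted p = 3.9e-05). KLF10, a repressor induced by growth factors, and KLF6 were not called between genotypes at 0 h and were higher in KO at 6 h. KLF10 reached 164 ± 52.4 CPM in KO and 61.2 ± 4.09 CPM in WT at 6 h (SD, n = 3 each, difference 1.25, adjusted p = 0.00107). BATF3, an AP-1 partner, had a difference of 1.48 (adjusted p = 0.000997), and IER3, an early survival gene, one of 1.96 (adjusted p = 0.00661). JUN, an AP-1 subunit, went the other way (-1.27, adjusted p = 0.0204), with 6.20 CPM in KO and 1.86 CPM in WT at 0 h. Its call was lost in 4 of the 12 omissions of 1 library, with an adjusted p of 0.0596 without library 3 of WT 0 h.

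MYC, a transcription factor that drives growth, did not rise. It stood at 286, 99.6 and 247 CPM in KO at 6 h and at 239, 227 and 242 CPM in KO at 0 h. The WT libraries held 71.8, 62.7 and 74.2 CPM at 6 h and 258, 296 and 267 CPM at 0 h. It was not called in KO (adjusted p = 0.788) and fell in WT, to 0.254 of its mean at 0 h. The difference was 1.81 (adjusted p = 0.0315), and 2.15 without library 5 of KO 6 h (adjusted p = 0.00415). Omission of any of the other 11 libraries ended the call.

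Of 26 feedback regulators of Ras, ERK and calcium signalling, 4 had a larger and 2 a smaller change (23.1%, against 3.01% of all genes). SPRY4, an inhibitor of Ras and ERK signalling, stood at 75.2, 52.6 and 72.6 CPM in KO at 6 h and at 0.085, 1.41 and 0.526 CPM in KO at 0 h. In WT it stood at 51.6, 55.0 and 55.2 CPM at 6 h and at 2.99, 3.35 and 3.85 CPM at 0 h. Levels overlapped at 6 h and were separate at 0 h, where KO was lower, and the difference was 3.24 ± 0.38 (adjusted p = 2.85e-06). SPRY2 followed the same course from low levels (difference 2.86, adjusted p = 0.000189). SPRED2, a related inhibitor, began lower in KO (13.8 CPM in KO, 27.0 CPM in WT) and ended higher (101 CPM in KO, 73.4 CPM in WT; difference 1.43 ± 0.14, adjusted p = 1.65e-07). DUSP6, the cytoplasmic phosphatase of ERK, reached 48.2, 79.7 and 50.6 CPM in KO and 16.4, 15 and 13.4 CPM in WT at 6 h, from 1.80 ± 0.191 CPM in KO and 4.22 ± 0.943 CPM in WT (SD, n = 3 each). Its difference of 3.30 ± 0.48 (adjusted p = 7.77e-05) held without library 5 of KO 6 h at 3.03. CBLB, a ubiquitin ligase that restrains T cell receptor signalling, had a smaller change (-0.99, adjusted p = 0.0161), at 66.1, 39.3 and 65.2 CPM in KO and 108, 106 and 108 CPM in WT at 6 h. Its call was lost without library 2 of WT 0 h (adjusted p = 0.0599) and without library 3 of KO 0 h (adjusted p = 0.0738).

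**Figure D3:**
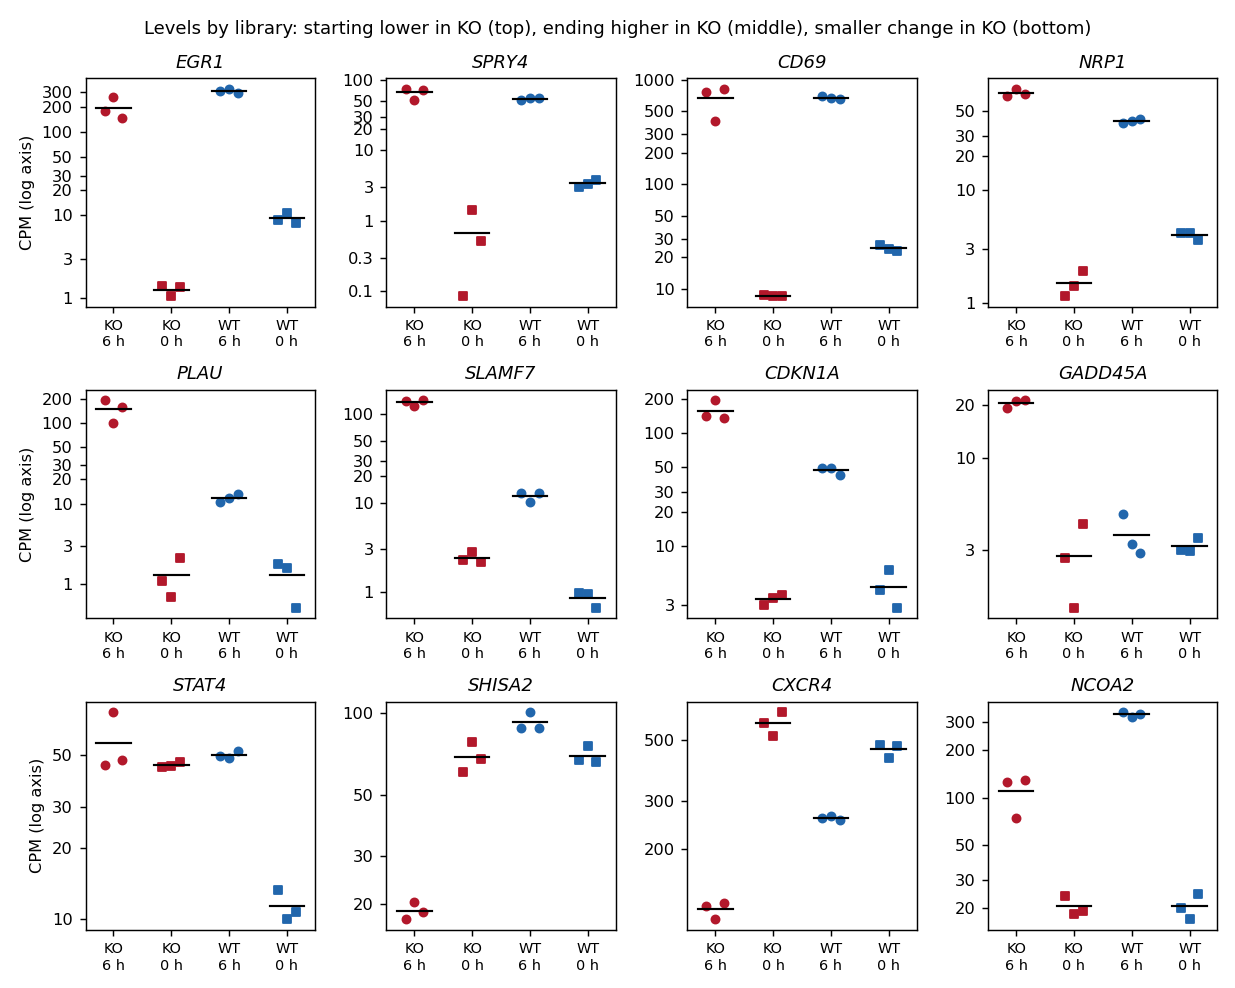
CPM on log axes in each library (points) with the group mean (line) for 12 genes, in the order KO 6 h, KO 0 h, WT 6 h and WT 0 h. The top row shows genes that began lower in KO (EGR1 at 1.27 CPM in KO, 9.24 CPM in WT). The middle row shows genes that ended higher in KO (PLAU at 149 CPM in KO, 11.8 CPM in WT). In the bottom row are genes with a smaller (more negative) change in KO.

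Of 23 surface receptors of activation tested, 6 had a larger change in KO (26.1%, against 3.01% of all genes) and none a smaller one. CD69, a lectin that is among the first surface proteins of activated T cells, stood at 769, 399 and 819 CPM in KO at 6 h and at 8.71, 8.46 and 8.53 CPM in KO at 0 h. In WT it stood at 694, 674 and 658 CPM at 6 h and at 26.4, 24.0 and 22.8 CPM at 0 h. The 6 h levels overlapped, whereas KO was lower at 0 h without overlap, and the difference was 1.48 ± 0.27 (adjusted p = 0.00104). IL2RA, the alpha chain of the interleukin 2 receptor, had the same course (difference 2.09, adjusted p = 0.0468), and its call was lost in 10 of 12 omissions of 1 library, with an adjusted p of 0.368 without library 1 of WT 0 h. TNFSF8, the ligand of CD30, was not called between genotypes at 0 h (1.92 CPM in KO, 2.28 CPM in WT) and reached 65.1, 51.4 and 60.6 CPM in KO and 15.2, 16.8 and 13 CPM in WT (difference 2.23 ± 0.26, adjusted p = 2.85e-06). Its receptor TNFRSF8 rose in KO, to 28.3, 31.6 and 28.7 CPM at 6 h, against 19.0, 19.7 and 17.7 CPM at 0 h. It fell in WT, to 20.3, 16.8 and 23.0 CPM at 6 h, against 34.3, 33.4 and 35.0 CPM at 0 h (difference 1.43 ± 0.26, adjusted p = 0.000936). CD40LG, the ligand by which T cells help B cells, was scarce in KO at both times, at 1.39 CPM at 6 h and 0.235 CPM at 0 h, against 20.6 and 22.7 CPM in WT. Its difference was 2.90 (adjusted p = 0.00932), from 11 counts in all KO 0 h libraries. Without library 1 of KO 0 h its adjusted p was 0.0809. By limma on log2(CPM + 1), a scale that damps values near 0, the calls of CD40LG (adjusted p = 0.101) and IL2RA were lost.

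Of 14 tested members of the SLAM family list, to which SLAMF6 belongs, 4 had a larger change in KO and none a smaller one. That was 28.6%, against 3.01% of all genes, and the median difference was 0.09. SLAMF7, a self-binding receptor of activated lymphocytes (GRCh38, chromosome 1, 160739057 to 160754821, plus strand), stood at 141, 124 and 143 CPM in KO at 6 h and at 2.25, 2.82 and 2.18 CPM in KO at 0 h. In WT it stood at 13, 10.3 and 13 CPM at 6 h and at 0.971, 0.939 and 0.66 CPM at 0 h. KO was the higher genotype at both times without overlap, and the gap widened at 6 h (difference 2.02 ± 0.46, adjusted p = 0.00932; adjusted p = 0.0931 without library 1 of WT 0 h). SLAMF1, the founding member, reached 58.2, 13.2 and 48.9 CPM in KO and 8.56, 5.53 and 7.13 CPM in WT at 6 h (difference 2.95, adjusted p = 0.0482). Its call was lost in 10 of 12 omissions of 1 library (adjusted p = 0.226 without library 1 of WT 0 h), and without library 5 of KO 6 h the difference was 3.36 (adjusted p = 0.00624). LY9 began lower in KO, at 8.16 ± 0.963 CPM against 19.5 ± 2.04 CPM in WT, and reached 41.4 ± 13.4 CPM in KO and 43.0 ± 1.72 CPM in WT (SD, n = 3 each, difference 1.2, adjusted p = 0.00349). SLAMF8 had a difference of 4.15 ± 0.68 (adjusted p = 0.00037) at levels under 11 CPM. SH2D1A, the SAP adaptor, stood at 67.5 CPM at 6 h and 241 CPM at 0 h in KO, and at 105 and 251 CPM in WT at these times, and was not called (-0.58).

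Several cytokine and granule genes rose steeply in both genotypes, and few passed the test of the difference. In 6 of 18 cytokine genes tested, some group had 3 or fewer counts. GZMB, the cytotoxic protease granzyme B, stood at 3010, 1800 and 2860 CPM in KO at 6 h and at 0.893, 1.41 and 1.05 CPM in KO at 0 h. In WT it stood at 239, 241 and 210 CPM at 6 h and at 0.117, 0.671 and 0.917 CPM at 0 h. KO was far above WT at 6 h (log2 3.48, adjusted p = 1.1e-09), while the difference in response of 2.57 ± 0.90 was not called (adjusted p = 0.125). GZMB was called by the DESeq2 Wald test (2.54, adjusted p = 0.00697), by edgeR without a filter on low counts (adjusted p = 7.63e-10) and when edgeR was fitted to these 12 libraries without later times (adjusted p = 0.0153). A replicate block by library number in that fit also called it (adjusted p = 0.00958). By edgeR it was called in no omission of 1 library, with a difference of 1.42 (adjusted p = 0.719) without library 3 of WT 0 h. IL2, the growth factor of activated T cells, reached 108, 26.9 and 104 CPM in KO and 13.7, 15.1 and 14.0 CPM in WT at 6 h. It had 10 counts in all KO 0 h libraries and no count in the WT 0 h libraries, so that WT was at least 289-fold higher at 6 h, by a floor of 3 counts over the group. The difference in response was not called (adjusted p = 0.839). IFNG reached 50.6, 19.2 and 49.8 CPM in KO and 7.41, 4.90 and 8.10 CPM in WT. TBX21, the factor that drives IFNG in helper cells, reached 30.4, 8.78 and 23.2 CPM in KO and 5.89, 4.13 and 3.66 CPM in WT. Neither was called for the difference (adjusted p = 0.918 for IFNG and 0.253 for TBX21), and both were higher in KO at 6 h (log2 2.55, adjusted p = 0.00013, and log2 2.18, adjusted p = 1.6e-05). TBX21 was called by DESeq2 (2.93, adjusted p = 0.0494) and without the filter (adjusted p = 0.0235). By edgeR it was not called in the fit of the 12 libraries (adjusted p = 0.205) or with the replicate block (adjusted p = 0.0983). Nor was it called in any omission of 1 library, with an adjusted p of 0.507 without library 3 of WT 0 h. On log2(CPM + 1), a scale that damps values near 0 and was chosen after the data were seen, the differences were 2.97 for GZMB (adjusted p = 2e-05), 1.89 for TBX21 (adjusted p = 0.00564), 2.27 for IFNG (adjusted p = 0.0119) and 1.93 for IL2 (adjusted p = 0.0532).

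Of the cytokine list, 2 of 18 members (11.1%, against 3.01% of all genes) had a larger change in KO, LTA and LIF. LTA, lymphotoxin alpha, reached 55.0, 58.8 and 51.6 CPM in KO and 15.3, 7.93 and 9.49 CPM in WT (difference 1.15, adjusted p = 0.0467), and its call was lost in 10 of 12 omissions of 1 library (adjusted p = 0.192 without library 3 of WT 0 h and 0.0726 without library 5 of KO 6 h). LIF had no count in KO at 0 h and stayed under 3 CPM in every library. Its call (adjusted p = 0.00884) was lost without library 3 of KO 0 h (adjusted p = 0.0531) and by limma on log2(CPM + 1) (adjusted p = 0.582). TNF reached 31.7, 26.6 and 40.0 CPM in KO and 5.75, 4.37 and 6.48 CPM in WT and was not called for the difference (1.08, adjusted p = 0.187). The chemokine list had no member called among 16 tested, of which 11 had 3 or fewer counts in some group. Of the cytotoxic list, 3 of 18 members had a larger change (16.7%, against 3.01% of all genes). They were FASLG and TNFSF10, ligands of death receptors, and CRTAM, an adhesion receptor of activated T cells. FASLG reached 19.7, 15.5 and 23.2 CPM in KO and 2.53, 1.63 and 3.33 CPM in WT (adjusted p = 0.0387). CRTAM reached 124, 58.7 and 129 CPM in KO and 12.1, 17.4 and 16.2 CPM in WT (adjusted p = 0.0482). Each had 2 counts in all KO 0 h libraries, so no fold is given. Their calls were lost in 8 and 11 of 12 omissions of 1 library. TNFSF10 (TRAIL) reached 91.8, 250 and 114 CPM in KO and 78.0, 74.4 and 79.0 CPM in WT, and its difference of 1.34 fell to 0.77 without library 5 of KO 6 h (adjusted p = 0.0982). Its call was lost in 8 of 12 omissions of 1 library, and the adjusted p was 0.117 without the second 0 h library of both genotypes.

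Of NF-kB genes, 2 of 25 (8%) had a larger change in KO and none a smaller change, with a median difference of -0.01. Over all genes 3.01% were called, and 7.57% of those at 100 CPM or more. TRAF1, an adaptor of TNF receptors, reached 397, 281 and 381 CPM in KO and 129, 123 and 124 CPM in WT from 3.43 CPM in KO and 3.94 CPM in WT at 0 h (difference 1.84 ± 0.32, adjusted p = 0.000549). TNIP2, an inhibitor of NF-kB activation, reached 93.3, 88.4 and 60.3 CPM in KO and 20.5, 19.5 and 15 CPM in WT (difference 1.49, adjusted p = 0.00351). The other 23 members, with the inhibitor NFKBIA (0.26) and the subunit NFKB1 (-0.03) among them, were not called. IRF1, whose promoter is printed above, reached 603 ± 33.2 CPM in KO and 323 ± 5.32 CPM in WT (SD, n = 3 each, difference 0.68, adjusted p = 0.0304), and its call was lost in 9 of 12 omissions of 1 library (adjusted p = 0.0758 without library 1 of KO 0 h and 0.0563 without library 5 of KO 6 h). HLA-E, a ligand of natural killer cell receptors, was the called member of 24 antigen presentation genes (4.17%, near the 3.01% of all genes), with means of 662 CPM in KO and 376 CPM in WT at 6 h, from 87.3 CPM in KO and 87.8 CPM in WT at 0 h (difference 0.82 ± 0.14, adjusted p = 0.000434).

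Of 30 arrest and survival genes, 3 had a larger and 2 a smaller change in KO (16.7%, against 3.01% of all genes). CDKN1A, the cyclin-dependent kinase inhibitor p21, stood at 142, 194 and 136 CPM in KO at 6 h and at 3.02, 3.52 and 3.68 CPM in KO at 0 h. The WT values were 48.8, 49.3 and 42.8 CPM at 6 h and 4.12, 6.17 and 2.86 CPM at 0 h (difference 1.99 ± 0.30, adjusted p = 0.000103). GADD45A, a stress gene that binds p21 and cyclin-dependent kinase 1, stood at 19.3, 21.0 and 21.3 CPM in KO at 6 h, against 2.72, 1.41 and 4.25 CPM at 0 h. In WT it was not called for a change, at 4.79, 3.27 and 2.87 CPM at 6 h, against 2.99, 2.95 and 3.52 CPM at 0 h (difference 2.55 ± 0.38, adjusted p = 8.93e-05). Neither gene was called between genotypes at 0 h, and both were higher in KO at 6 h without overlap. CDKN1B (p27) and BTG2, a brake on proliferation, had smaller changes (-1.03 and -0.94), with KO called higher at 0 h and no call between genotypes at 6 h. The BTG2 call was lost in 5 of 12 omissions of 1 library (adjusted p = 0.106 without library 1 of WT 0 h and 0.0511 without library 5 of KO 6 h).

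Among urokinase genes, grouped after their values were seen, PLAU and SERPINB2 separated at 6 h and PLAUR did not. PLAU, the protease urokinase, stood at 190, 100 and 158 CPM in KO at 6 h and at 1.11, 0.705 and 2.14 CPM in KO at 0 h. WT libraries had 10.4, 11.8 and 13.2 CPM at 6 h and 1.79, 1.61 and 0.513 CPM at 0 h (difference 3.35 ± 0.62, adjusted p = 0.0014, and 0.0718 without library 1 of WT 0 h). SERPINB2, an inhibitor of urokinase, reached 37.6, 25.6 and 39.9 CPM in KO and 3.73, 3.80 and 3.57 CPM in WT (adjusted p = 0.000396), with 1 count in all KO 0 h libraries. PLAUR, the receptor, had a difference of 1.60 (adjusted p = 0.0164) that was 1.01 without library 5 of KO 6 h (adjusted p = 0.0911), and the adjusted p was 0.0569 without library 1 of KO 0 h. Among other genes with the largest positive differences, ARC, a cytoskeletal protein first known from neurons, reached 51.3, 49.8 and 50.4 CPM in KO and 4.60, 5.96 and 1.25 CPM in WT (difference 4.55 ± 1.02, adjusted p = 0.00804, and 0.0653 without library 3 of WT 0 h). It had 8 counts in all KO 0 h libraries and 16 in all WT 0 h libraries. COL6A3, a collagen VI chain, reached 45.5, 40.1 and 43.4 CPM in KO and 26.5, 17.8 and 21.1 CPM in WT (difference 3.67 ± 0.40, adjusted p = 8.91e-07). It began lower in KO, at 0.347 CPM from 26 counts, against 2.91 CPM in WT. Its log2 difference between KO and WT was -2.69 at 0 h and 0.98 at 6 h. MGLL, a lipase of monoacylglycerols, reached 81.5, 92.2 and 72.9 CPM in KO and 20.8, 25.1 and 23.3 CPM in WT (difference 3.03 ± 0.41, adjusted p = 2.18e-05). PLEK, a substrate of protein kinase C, had a difference of 3.09 (adjusted p = 5.18e-05), NRP1, a semaphorin receptor, one of 2.18 (adjusted p = 1.01e-05), and PTPRE, a tyrosine phosphatase, one of 1.57 ± 0.16 (adjusted p = 5.04e-07). CPA4, a carboxypeptidase, rose in KO to 12.5 CPM at 6 h, against 0.966 CPM at 0 h, and was not called in WT, at 4.12 and 2.90 CPM at these times (difference 3.16, adjusted p = 0.000737). ACTG2, a smooth muscle actin, was not called in KO, at 9.07 CPM at 6 h and 8.90 CPM at 0 h, and fell in WT to 4.02 CPM at 6 h, against 15.6 CPM at 0 h (difference 1.96, adjusted p = 0.00277).

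The cholesterol and fatty acid synthesis list had 8 of 30 tested members with a larger change (26.7%, against 3.01% of all genes). None had a smaller change, and the median difference of the list was 0.35. Of its members, 14 rose and 7 fell in KO, whereas 6 rose and 11 fell in WT. Over all genes tested, 14% rose and 13.2% fell in KO, and 11.8% rose and 10.5% fell in WT. MSMO1, a sterol methyl oxidase, stood at 356, 411 and 331 CPM in KO at 6 h and at 132, 154 and 145 CPM in KO at 0 h. WT libraries held 314, 351 and 338 CPM at 6 h and 309, 351 and 274 CPM at 0 h (difference 1.25 ± 0.20, adjusted p = 0.000196). The levels overlapped at 6 h and were lower in KO at 0 h. HMGCS1, which makes HMG-CoA, followed the same course (difference 0.96, adjusted p = 0.000693), with no call between genotypes at 6 h. Of ribosome biogenesis genes, 5 of 28 had a larger change (17.9%, against 3.01% of all genes). The difference was positive in 27 of 28, with a median of 0.50. Of these 28 genes, 8 rose and 2 fell in KO, while none rose and 11 fell in WT, to be read beside the same shares of all genes. POLR1B, a subunit of RNA polymerase I, reached 162, 97.0 and 153 CPM in KO at 6 h, against 84.3, 79.1 and 87.4 CPM at 0 h. WT stood at 95.3, 101 and 97.3 CPM at 6 h, against 118, 114 and 123 CPM at 0 h (difference 0.99, adjusted p = 0.00741). Of heat shock chaperones, 4 of 18 had a larger change (22.2%, against 3.01% of all genes). HSPD1, the mitochondrial chaperonin, stood at 1440, 1580 and 1490 CPM in KO and 693, 686 and 691 CPM in WT at 6 h, from 1220 CPM in KO and 1100 CPM in WT at 0 h (difference 0.97 ± 0.18, adjusted p = 0.00165). HSP90AA1, HSPH1 and HSPE1 had differences of 0.72, 0.95 and 0.99. No member was called among 33 genes of oxidative phosphorylation or 34 of S phase by edgeR. PGK1 was the called member of 32 glycolysis genes (3.12%, near the 3.01% of all genes), with a difference of 0.41 (adjusted p = 0.0441). Its call was lost in 10 of 12 omissions of 1 library, with an adjusted p of 0.119 without library 5 of KO 6 h. The PGK1 call was also lost by limma on log2(CPM + 1).

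**Figure D4:**
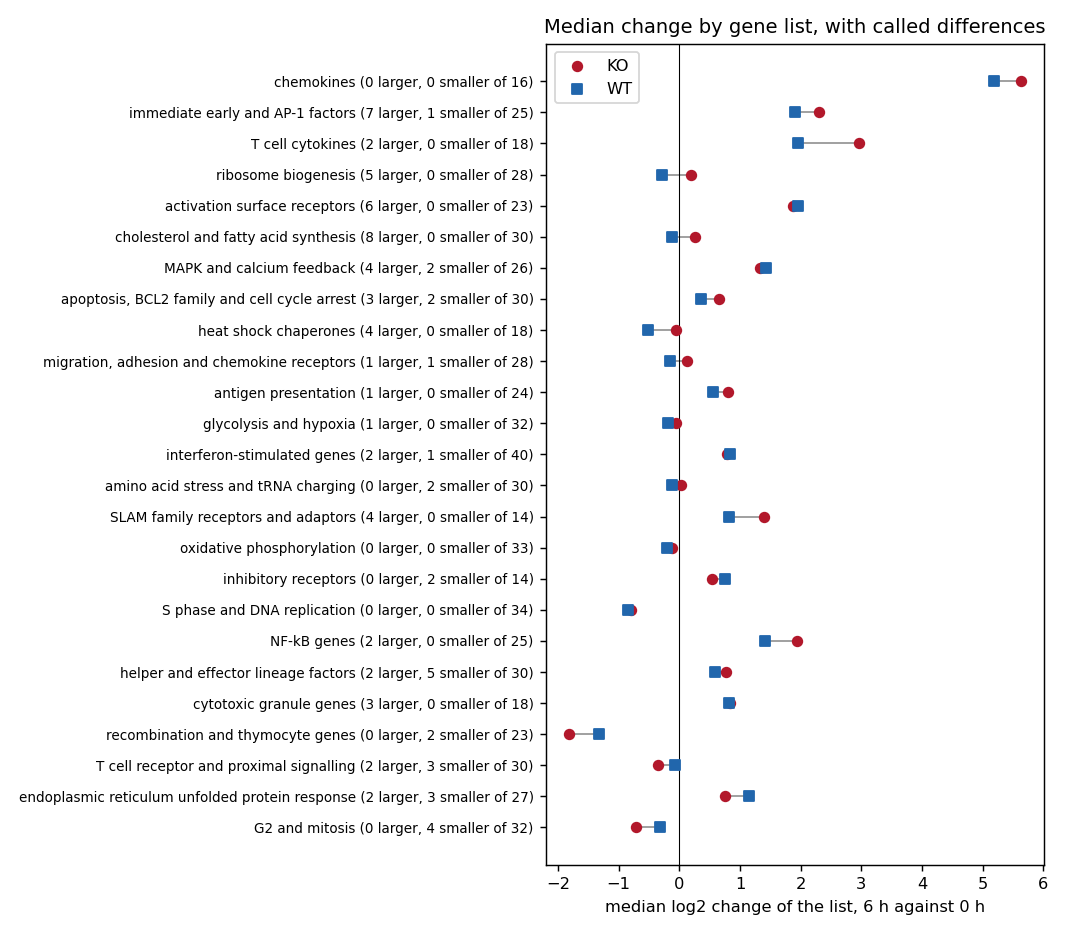
Circles (KO) and squares (WT) give the median log2 change from 0 to 6 h of each gene list, with the counts of members called for a larger or smaller change in KO beside its name, ordered by the median difference. Ribosome biogenesis stood at 0.19 in KO and -0.28 in WT, and G2 and mitosis at -0.71 in KO and -0.32 in WT.

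The unfolded protein response of the endoplasmic reticulum had 2 of 27 members with a larger change and 3 with a smaller change. That was 18.5% of members, against 3.01% of all genes. The response had a median difference of -0.18, and 19 members rose in KO and 22 in WT, beside 14% and 11.8% of all genes. HSPA5, its central chaperone BiP, rose in both, to 2730 CPM in KO and 6860 CPM in WT, from 676 CPM in KO and 2250 CPM in WT at 0 h, and was not called for the difference (0.40, adjusted p = 0.141). DNAJC3, an inhibitor of the kinase PERK, had a smaller change (-0.64, adjusted p = 0.00922). HERPUD1, a factor of protein degradation at the endoplasmic reticulum, had a larger one (0.56, adjusted p = 0.0222). HERPUD1 was lower in KO at both times, with 208 CPM in KO and 445 CPM in WT at 6 h, and 57.3 and 181 CPM at 0 h. Its call was lost without library 3 of WT 0 h (adjusted p = 0.0528), library 6 of WT 6 h (adjusted p = 0.077) or library 2 of KO 0 h (adjusted p = 0.0535).

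Of 30 helper and effector lineage factors, 5 had a smaller and 2 a larger change in KO (23.3%, against 3.01% of all genes). STAT4, which transmits the interleukin 12 signal, stood at 45.1, 76.1 and 47.4 CPM in KO at 6 h and at 44.4, 44.9 and 46.4 CPM in KO at 0 h. In WT it stood at 49.6, 48.6 and 52.1 CPM at 6 h and at 13.3, 9.93 and 10.7 CPM at 0 h. It was not called in KO and rose in WT, and at 0 h the means were 45.2 CPM in KO and 11.3 CPM in WT (difference -1.82 ± 0.29, adjusted p = 0.000247). IKZF2, the zinc finger factor Helios, fell in KO to 34.1, 18.4 and 40.7 CPM at 6 h, against 82.1, 102 and 79.0 CPM at 0 h. It was not called in WT, at 68.5, 72.5 and 85.7 CPM at 6 h and 64.8, 73.0 and 67.5 CPM at 0 h (difference -1.64, adjusted p = 0.00451). TCF7, a factor of early and resting T cells, was higher in KO at 0 h (359 CPM in KO, 156 CPM in WT) and was not called between genotypes at 6 h (122 CPM in KO, 119 CPM in WT; difference -1.16, adjusted p = 0.0384), and its call was lost in 10 of 12 omissions of 1 library (adjusted p = 0.111 without library 1 of KO 0 h and 0.0963 without library 5 of KO 6 h).

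Of 30 T cell receptor and proximal signalling genes, 3 had a smaller and 2 a larger change (16.7%, against 3.01% of all genes). PTPRC, the phosphatase CD45, stood at 668, 707 and 742 CPM in KO at 6 h, against 589, 679 and 595 CPM at 0 h, and at 1030, 1050 and 1120 CPM in WT at 6 h, against 515, 537 and 482 CPM at 0 h (difference -0.87 ± 0.16, adjusted p = 0.00147). LAT, the adaptor that nucleates receptor signalling, reached 1320, 2280 and 1340 CPM in KO and 650, 676 and 602 CPM in WT (difference 1.07, adjusted p = 0.0158). Its difference was 0.76 without library 5 of KO 6 h (adjusted p = 0.0696), and the call was also lost without library 6 of WT 6 h (adjusted p = 0.0508). TRBC2, a receptor beta constant gene, had a larger change (0.90, adjusted p = 0.00147) from a lower start in KO. Of inhibitory receptors, 2 of 14 had a smaller (more negative) change in KO (14.3%, against 3.01% of all genes) and none a larger one. CD5, a damper of receptor signals, rose to 151, 164 and 126 CPM in KO and 387, 358 and 356 CPM in WT from 95.3 CPM in KO and 112 CPM in WT at 0 h (difference -1.09 ± 0.16, adjusted p = 8.46e-05). The collagen receptor LAIR1 fell in both genotypes and further in KO (difference -1.01, adjusted p = 0.0465). At 6 h it stood at 0.217 of its 0 h mean in KO and at 0.438 in WT. The LAIR1 call was lost in 11 of 12 omissions of 1 library, with an adjusted p of 0.146 without library 4 of KO 6 h. CAMK4, a calcium-dependent kinase, fell further in KO, to 64.3 CPM at 6 h against 161 CPM at 0 h, than in WT, with 97.9 CPM at 6 h against 121 CPM at 0 h (difference -1.02 ± 0.15, adjusted p = 7.63e-05).

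CXCR4, the chemokine receptor that retains lymphocytes in marrow and thymus, fell in both genotypes. It stood at 123, 110 and 126 CPM in KO at 6 h and at 580, 520 and 635 CPM in KO at 0 h. The WT values were 260, 263 and 255 CPM at 6 h and 479, 431 and 478 CPM at 0 h (difference -1.44 ± 0.18, adjusted p = 1.11e-05). P2RY8, a receptor that confines B cells in germinal centres, fell further in KO as well (-1.32 ± 0.20, adjusted p = 9.68e-05), with means of 18.2 CPM in KO and 50.7 CPM in WT at 6 h. SHISA2, an endoplasmic reticulum protein that restrains Wnt and FGF receptors, fell in KO to 17.6, 20.4 and 18.8 CPM at 6 h, against 60.7, 78.6 and 68.2 CPM at 0 h. In WT it was not called, at 88.2, 101 and 88.2 CPM at 6 h and 67.2, 75.5 and 66.0 CPM at 0 h (difference -2.28 ± 0.29, adjusted p = 1.21e-05). NCOA2, a coactivator of nuclear receptors, rose in both, to 126, 74.7 and 129 CPM in KO and 347, 322 and 337 CPM in WT from 20.5 CPM in KO and 20.6 CPM in WT at 0 h (difference -1.60 ± 0.26, adjusted p = 0.000301). ENPP1, an ectoenzyme that hydrolyses nucleotides and cGAMP, rose in both, to 46, 52.8 and 40.8 CPM in KO and 146, 147 and 157 CPM in WT from 1.78 CPM in KO and 2.03 CPM in WT at 0 h (difference -1.59 ± 0.29, adjusted p = 0.00102). HHIP, which binds hedgehog ligands (-1.50), and TSPAN14, a tetraspanin (-1.51), fell in both genotypes and further in KO. NRROS, which anchors latent TGF-beta in myeloid cells, fell in KO and was not called in WT (-2.00).

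All 32 genes of G2 and mitosis had a negative difference, with a median of -0.44. Of these, 4 were called with a smaller (more negative) change in KO: CENPF, KIF20A, NUSAP1 and ANLN. That was 12.5%, against 3.01% of all genes, 4.92% of genes at 10 to 100 CPM and 7.57% at 100 CPM or more. In KO 27 of the 32 fell, beside 13.2% of all genes, and in WT 14 of the 32 fell, beside 10.5% of all genes. NUSAP1, a microtubule binding protein of the spindle, stood at 144, 223 and 149 CPM in KO at 6 h and at 423, 405 and 426 CPM in KO at 0 h. WT libraries had 287, 287 and 299 CPM at 6 h and 418, 411 and 391 CPM at 0 h (difference -0.80 ± 0.16, adjusted p = 0.00304). CENPF, a kinetochore protein, fell in KO and was not called in WT (-0.91, adjusted p = 0.00187). The call of KIF20A was lost in 11 and that of ANLN in 6 of 12 omissions of 1 library (adjusted p = 0.156 without library 4 of KO 6 h for KIF20A). CCNG2, an atypical cyclin linked to arrest, fell in KO and rose in WT, at 7.14, 11.9 and 8.29 CPM in KO and 23.8, 20.3 and 24.5 CPM in WT at 6 h (difference -1.85 ± 0.33, adjusted p = 0.00102). In bulk RNA, fewer cells in a phase and less RNA per cell cannot be told apart.

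The genes called at 6 h were followed at 12, 24 and 36 h, in libraries that do not enter the contrast, although they share its fit, and so bore on the filter and the estimate of spread behind the calls. Of the 353 genes with a larger change, 133 (37.7%) were higher in KO than in WT at 12 h, 95 (26.9%) at 24 h and 121 (34.3%) at 36 h, against 6.07%, 4.97% and 6.95% of all genes tested. The whole comparison of KO with WT called 11.6%, 9.73% and 13.5% of genes at these times. Of the 296 genes with a smaller change, 47 (15.9%) were lower in KO at 12 h, 67 (22.6%) at 24 h and 105 (35.5%) at 36 h, against 5.52%, 4.76% and 6.52% of all genes tested. Their median log2 difference between KO and WT was -0.06, -0.16 and -0.28 at these times, and 5.41%, 8.11% and 8.78% of them were called higher in KO. Of the genes with a larger change, 3.12%, 4.53% and 4.25% were called lower in KO. At 6 h, in libraries that made the calls, KO was higher at 62.9% of the 353 genes and lower at 60.8% of the 296. The called genes were more often at high levels than all genes tested, so these shares are not matched for level. SLAMF7 had a log2 difference between KO and WT of 1.47 at 0 h, 3.49 at 6 h, 3.53 at 12 h, 4.61 at 24 h and 4.88 at 36 h. CDKN1A had -0.25, 1.74, 1.59, 1.79 and 2.53 at these times, and PLAU 0.31, 3.66, 3.51, 3.69 and 3.27. All 3 were called higher in KO from 6 to 36 h. GADD45A had 2.49 at 6 h, 0.69 at 12 h and 0.06 at 24 h, and was not called from 12 h on. DUSP6 had 1.99 at 6 h, 1.82 at 12 h, where it was still called higher in KO, and -0.75 at 24 h. It was not called at 24 or 36 h. EGR1, with -2.75 at 0 h and -0.67 at 6 h, stood at 0.02 at 12 h and at 0.67 at 36 h, where it was called higher in KO. SHISA2 remained lower in KO at every activated time, with -2.29, -2.00, -1.82 and -2.69 from 6 to 36 h, and CXCR4 with -1.12, -1.10, -1.09 and -1.80. CD5, with -1.32 at 6 h, stood at -0.45 at 12 h and 0.04 at 36 h.

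**Figure D5:**
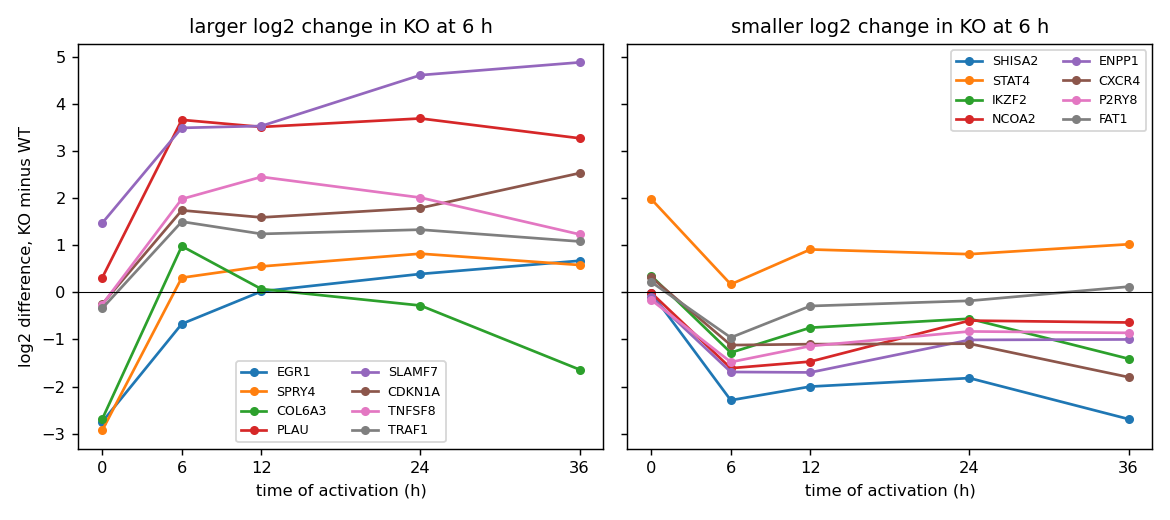
Log2 difference between KO and WT (y axis) at 0, 6, 12, 24 and 36 h (x axis) for 8 genes with a larger change in KO at 6 h (left) and 8 with a smaller change (right). EGR1, SPRY4 and COL6A3 began below 0 and lay within 1 of it at 6 h, PLAU and SLAMF7 stayed above 3 from 6 h on, and SHISA2 stayed below -1.8 from 6 h on.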

How the data were processed

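RNA was measured by sequencing in 30 libraries, 3 for each genotype and time, of which 12 (KO and WT at 0 and 6 h) carry the comparison. Lysis used TCL buffer, with SPRI beads for RNA, per the labels' protocols. The authors deposited 1 table per library of expected counts for 54300 gene symbols. Values that were not whole (0.177% of all values, at 195 symbols) were rounded. A table of the whole series held the same values and was not used. The submitters' processing notes name cutadapt, STAR, DESeq2, GRCh37 and hg19 without versions. The counting program, its annotation and any use of strand were not given in the sources used here, so overlapping and antisense genes cannot be told apart.

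Tests used edgeR 4.0.16 under R 4.3.3. Its filterByExpr at a minimum count of 10 left 21554 symbols, libraries were scaled by TMM, and 1 quasi-likelihood fit of 30 libraries with a mean for each of 10 groups gave the contrast. Benjamini-Hochberg adjustment ran over all tested genes, with calls under 0.05. The standard error is the absolute log2 value divided by the square root of F. The model was checked on simulated data, with the same spread for all genes and differences placed only in expressed genes. That check does not cover genes near 0 counts at 0 h or a library that stands apart. Levels are TMM-scaled CPM, not adjusted for gene length. Floors are 3 counts over a group and reflect counting error alone, as reads carried no molecular identifiers.

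Named genes were SLAMF6, IL2, IFNG, TBX21, CD69 and GZMB, the 15 largest differences in each direction among called genes of at least 10 CPM with over 3 counts in each group, up to 5 without that floor, leading genes of each class and up to 4 members of each list. JUN, MYC, TNF, IER3, IL2RA, PLAUR, TCF7, HSPA5, CBLB, SH2D1A, NFKBIA and NFKB1 were added after their values were seen. The members and lists were chosen with earlier results of these data known. Positions are GENCODE 29 on GRCh38, matched by symbol for 159 of 162 named genes, and not the authors' build. Alternatives were another scaling, no filter on low counts, DESeq2 1.42.0, the 12 libraries alone, a replicate block, omission of each library and of both shallow 0 h libraries, and limma 3.58.1 on log2(CPM + 1).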

Additional observations from a re-analysis of the deposited data

Results flagged for a closer look

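The difference between genotypes in the 6 h response was itself tested, and it was called at 353 genes with a larger change in KO and 296 with a smaller change. Of all called genes, 9 rose in KO while falling in WT and 20 fell in KO while rising in WT. The 16 given here had the smallest p-values for the difference, among genes of at least 10 CPM without clone names. Other named genes with opposite calls included CDKN1B (-0.55 in KO, 0.49 in WT) and PBXIP1 (-0.70 in KO, 0.93 in WT). Rising in KO and falling in WT were TUBB2A, a beta tubulin (log2 difference 1.91), TNFRSF8, the receptor CD30 (1.43), CCDC86 (1.12), WDR3, a ribosome assembly factor (0.80), CORO1C, an actin binding coronin (0.74), the chaperone HSP90AA1 (0.72), CIAO1, of iron-sulphur cluster assembly (0.69), and ARFRP1, a small GTPase of the Golgi (0.60). Falling in KO and rising in WT were CCNG2 (-1.85), the sodium channel SCN3A (-1.28), MKNK2, a kinase downstream of ERK and p38 (-1.28), the ceramide transporter COL4A3BP (-1.13), TOB1, which restrains proliferation (-1.12), FZD3, a Wnt receptor (-1.12), the amino acid transporter SLC38A2 (-1.07) and ABHD4 (-1.04). TUBB2A stood at 35.3, 31.0 and 33.6 CPM in KO at 6 h and at 12.5, 16.4 and 11.5 CPM in KO at 0 h, against 6.67, 5.86 and 7.5 CPM in WT at 6 h and 8.2, 13.1 and 9.31 CPM in WT at 0 h. TOB1 stood at 41.8, 41.8 and 42.4 CPM in KO at 6 h and at 71.7, 68.5 and 65.8 CPM in KO at 0 h, against 63.8, 66.8 and 65.7 CPM in WT at 6 h and 51.7, 48.7 and 47.4 CPM in WT at 0 h. ARFRP1 was not called without library 6 of WT 6 h (adjusted p = 0.0626).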

How the results depend on the processing

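The count of genes called for the difference in response, 649, was 1062 by the DESeq2 Wald test (614 larger and 448 smaller in KO) and 392 without the second 0 h library of both genotypes (224 and 168), where genes called between KO and WT at 0 h numbered 656. Fitted to the 12 libraries of 0 and 6 h, edgeR called 921 genes (550 larger and 371 smaller) and 1553 between KO and WT at 0 h. Same-numbered KO and WT libraries at 0 and 6 h correlated by 0.01 to 0.07 after removing group means, under the 0.1 set for a pairing, although each correlated best with its own number in 6 of 6 cases. With a replicate block added to that 12-library fit, the count was 1546 (841 larger and 705 smaller) and that of KO against WT at 0 h was 2478. Leaving out each library in turn, the count ranged from 403 to 718, with 231 to 386 larger and 165 to 332 smaller. Over the same omissions the count ranged from 4954 to 5491 for 6 h against 0 h in KO, from 3805 to 4141 for that in WT, and between KO and WT from 664 to 1186 at 0 h, 1418 to 2021 at 6 h, 1374 to 2043 at 12 h, 1482 to 1936 at 24 h and 2097 to 2386 at 36 h. No replicate block could be fitted to 6 h against 0 h within a genotype, since numbers differ between times, and it was not run for later times. Over the omissions the IFNG difference ran from -0.13, without library 1 of WT 0 h, to 4.35, without library 3 of KO 0 h. The sign of the IL2 difference changed to 1.93 by limma on log2(CPM + 1), from -2.35, and it was not called in either. Of 149 named genes called, 88 were called under every alternative and 54 lost the call in at least 1 omission of a library; the cause was not tested. Without library 5 of KO 6 h, 20 of 162 named genes lost their call and 3 gained one. Depth limits genes with few counts, as in 6 of 18 cytokine and 11 of 16 chemokine genes with 3 or fewer counts in some group.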

Other observations

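Outside the lists, CBX6, a chromobox protein of Polycomb complexes, stood at 446, 523 and 414 CPM in KO and 187, 183 and 179 CPM in WT at 6 h, from 162 CPM in KO and 158 CPM in WT at 0 h (difference 1.30 ± 0.17, adjusted p = 1.08e-05). FHL2, a LIM domain protein, was not called in KO, at 26.4 CPM at 6 h and 27.1 CPM at 0 h, and fell in WT to 9.62 CPM at 6 h, against 33.9 CPM at 0 h (difference 1.76). FAT1, a giant cadherin, fell in KO to 107, 91.8 and 110 CPM at 6 h, against 252, 217 and 253 CPM at 0 h, and was not called in WT, at 202, 192 and 210 CPM at 6 h and 210, 178 and 230 CPM at 0 h (difference -1.19 ± 0.15, adjusted p = 8.47e-06). KLHL24, an adaptor of a ubiquitin ligase, was not called in KO and rose in WT, to 21.2 CPM at 6 h against 8.42 CPM at 0 h (difference -1.48 ± 0.19, adjusted p = 1.21e-05). PTGS1, the cyclooxygenase COX-1, reached 34.3, 33.1 and 34.2 CPM in KO and 34.8, 36.8 and 32.7 CPM in WT at 6 h, with 1 count in all KO 0 h libraries and 33 counts in all WT 0 h libraries. ROR1, a Wnt co-receptor, reached 8.43, 5.50 and 9.80 CPM in KO and 14.3, 12.2 and 14.4 CPM in WT at 6 h, and had no count in KO and 70 counts in WT at 0 h. Both genes were called by edgeR for a larger change in KO (adjusted p = 0.00112 for PTGS1 and 0.00198 for ROR1). By limma on log2(CPM + 1) neither was called (adjusted p = 0.503 for PTGS1 and 0.925 for ROR1).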
